A study of Mus musculus with 12 samples.

Results

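RNA helicases of the DEAD and DEAH box families were followed in 12 RNA-seq libraries of mouse CD8+ T cells. Members were taken by symbol, as protein-coding genes named Ddx or Dhx with a number, and 52 of the 53 candidates held at least 120 counts over the 12 libraries. Of the 52 genes, 36 carried the prefix Ddx and 16 the prefix Dhx, out of 55536 annotated genes in the count table. The candidate left out, Ddx4, had 0 counts, and the members just inside the limit were Ddx25 with 261 counts and Ddx43 with 1201 counts in all.

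All cells came from OT-1 Tg mice on the C57BL/6J background, which carry a T cell receptor for an ovalbumin peptide and which, by the methods of the study, lack a recombinase needed for other lymphocyte receptors. In the Ag group (5 libraries), OT-I cells were transferred into C57BL6/J recipients that were given the peptide with a control IgG. In the Ag+Costim group (5 libraries), the recipients were given the peptide with agonist antibodies to OX40 (CD134) and 41BB (CD137), a pair of costimulatory receptors of the tumor necrosis factor receptor family. The Naive group (2 libraries) held OT-I cells that had not been transferred. The labels give 4 days to harvest for the transferred cells and no age. The methods of the study put the sort slightly earlier, describe mice from young to adult, and describe sorting for CD8 and the transgenic receptor chains and the use of both sexes. Libraries held 24006053 to 49294934 counts. Ag 4 was the shallowest, and every other library held at least 40028682 counts. Spearman correlations between libraries of a group, over the 18817 genes that passed a filter on low counts, lay between 0.966 and 0.984. Whether each library came from a different animal is not given in the labels, so the p-values measure the spread between these samples.

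RNA helicases of these families bind RNA, hydrolyse ATP and open short duplexes or strip proteins from RNA. They drive the steps of the spliceosome cycle, the maturation of ribosomal RNA, and the export, translation and decay of mRNA, and a few members sense viral RNA. Activated CD8+ T cells grow and divide quickly, a state in which ribosome production and mRNA processing are known to increase.

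The families are named for motif II, the 4 residues at the ATPase center that bind magnesium and ATP. The coding sequence of motif II was read from the longest coding transcript of each member in GENCODE vM21. Of the 52 members, 27 encoded D-E-A-D, 9 encoded D-E-A-H, 15 encoded other residues in 1 or both of the last positions, and in Dhx32 the motif was not found. The sequences below show motif II of members that the results turn on. Members were taken by symbol, and the motif was not used to assign a gene to a family. Each has 30 coding bases written 5′ to 3′, with the 4 codons of motif II in capitals.
Ddx19a: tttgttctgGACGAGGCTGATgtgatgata
Ddx19b: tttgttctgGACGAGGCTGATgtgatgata
Ddx5: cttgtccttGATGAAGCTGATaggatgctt
Ddx17: cttgtgttgGATGAGGCTGACcggatgctt
Ddx3x: ctggtgttaGATGAAGCTGACcggatgtta
Ddx3y: ttagtattgGATGAAGCTGATaggatgctg
Ddx39: tttgtgctaGATGAATGTGACaagatgctg
Ddx39b: tttattttgGACGAGTGTGACaagatgctt
Dhx38: gtcatcatgGATGAGGCCCACgagcgctcc
Ddx11: gtcattattGACGAGGCTCACaacctgatc
Dhx9: gttattgtgGATGAAATTCATgaaagagat
Ddx60: gttatatttGATGAGGTCCATtgccttggt
The windows of Ddx19a and Ddx19b were identical. Ddx11 carries the symbol of a DEAD box gene, but its codons read D-E-A-H, which by itself does not place it among the DEAH box RNA helicases. The export factors Ddx39 and Ddx39b carried a cysteine codon, TGT, in the third position of the motif.

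The main comparison asked which helicases changed when costimulation was added to antigen. Costimulated cells held 33 of the 52 helicases at a higher and 5 at a lower level than cells given antigen alone, and 14 did not pass the test (edgeR quasi-likelihood test, Benjamini-Hochberg adjusted p below 0.05). Over all 18817 genes tested, 26.6% were higher and 26.5% were lower. For the helicases, the median log2 fold change stood at 0.64, compared with -0.05 over all genes tested. With upper-quartile scaling the median of all genes moved to -0.24 and 28 helicases were higher and 9 lower. The median of the helicases exceeded that of all genes by 0.69 under either scaling. A change of scaling moves all genes nearly alike, so the equal gap is no test of it. The gap was smaller with a correction for transcript length, at 0.48. With limma on log2(FPKM + 1) and log2(FPKM + 0.1) it was 0.54 and 0.65. Groups did not overlap for 28 helicases with the Ag+Costim libraries on top, against 21.3% of all genes, and for 5 with the Ag libraries on top, against 18.5%. The share of all counts that fell on the 52 genes was 3677 to 3861 CPM (counts relative to the library's TMM-scaled total) for Ag libraries, 5075 to 5905 CPM for Ag+Costim libraries, and 4908 and 4958 CPM in Naive.

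**Figure D1:**
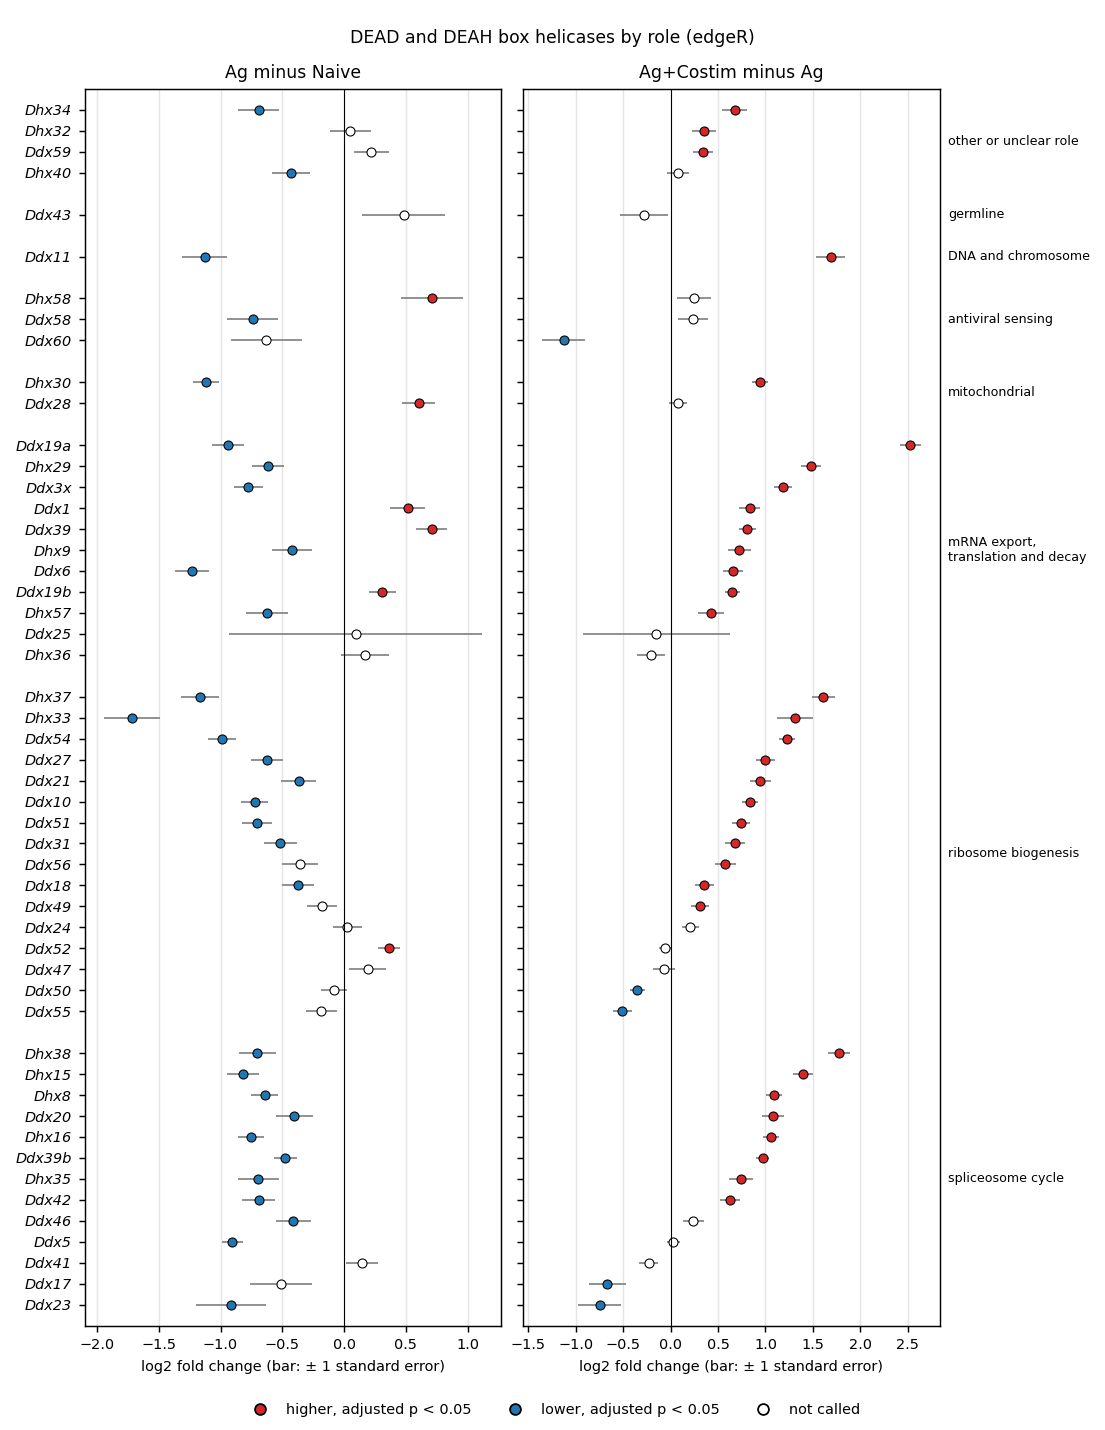
Log2 fold change of each helicase from Naive to Ag (left) and from Ag to Ag+Costim (right), by role, with bars of 1 standard error and filled points where the adjusted p was below 0.05. Ddx3y, whose standard error was 2.25 on the left, is left out; on the right, 33 points are filled as higher and 5 as lower.

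Antigen alone was compared with naive cells in the same model. Here 6 helicases were higher and 31 lower in Ag than in Naive, while 24.2% of all genes tested were higher and 22.5% lower. For the helicases, the median on the log2 scale was -0.51, compared with 0.02 over all genes. The comparison rests on 2 Naive libraries, and without Naive 1 it gave 2 higher and 22 lower, and without Naive 2 it gave 3 higher and 21 lower. Between Ag+Costim and Naive, 20 helicases were higher and 7 lower, against 26.9% and 25.4% of all genes, with a median of 0.18 for the helicases and -0.02 over all genes. The last direction depended on the measure, since limma on log2(FPKM + 1) gave 10 higher and 13 lower with a median of -0.01. The 3 comparisons share samples, so their values are not independent of each other.

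By length-scaled level (mean FPKM), Ddx39 was the most abundant helicase in both transferred groups, at 208 ± 17.8 (SD, n = 5) in Ag and 364 ± 39.1 (SD, n = 5) in Ag+Costim. Its level in Naive was 140 ± 1.62 (SD, n = 2), where it ranked 3. In Naive the highest level belonged to Ddx5, a coregulator of splicing and transcription, at 309 ± 3.76 FPKM (SD, n = 2), followed by Ddx39b at 148 ± 1.58. Ddx5 stood at 151 ± 6.49 FPKM in Ag and 152 ± 10.5 in Ag+Costim (SD, n = 5 each), and the mean in the second of these lay within the spread of the first. Ddx24 and Ddx39b followed in Ag at 94.8 ± 9.36 and 91.8 ± 5.13 FPKM. Ddx47 and Ddx41 completed the 6 highest in Ag at 89.7 ± 12.8 and 66.7 ± 7.99 FPKM. Ddx24, Ddx39b and Ddx47 differed by less than their spread. These gene-level values include transcripts not annotated as protein coding, so the ranks are not ranks of coding transcripts. Transcripts annotated as protein coding held a mean of 36.8% of the counts of Ddx39 in Ag, 60.4% for Ddx5 and 99.2% for Ddx24. At the other end, Ddx25 and Ddx43, which are known from the germline, had mean levels of 0.0743 and 1.23 FPKM in Ag.

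Helicases that drive the spliceosome cycle formed a list of 13, of which 8 were called higher and 2 called lower with costimulation, with a median log2 fold change of 0.74. Dhx38 (PRP16), which remodels the spliceosome between the steps of the reaction, lay at 22.5, 26.5, 22.7, 21.4 and 28.5 CPM in Ag 1 to 5. In Ag+Costim 1 to 5 it lay at 78.1, 96.9, 90.8, 64.9 and 86.0 CPM, and in Naive at 38.3 and 41.0 CPM. Every Ag+Costim library was above every other library for Dhx38, and every Ag library was below both Naive libraries. The rise from Ag was 3.42-fold (log2 1.77 ± 0.12 SE, edgeR adjusted p = 8.29e-08).

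Dhx15, which disassembles the spliceosome and also acts in ribosome maturation, lay at 95.1, 100, 98, 84 and 113 CPM in Ag. In Ag+Costim it lay at 269, 303, 260, 212 and 244 CPM, and in Naive at 174 and 172 CPM. The 3 groups did not overlap, with Ag lowest and Ag+Costim highest. Its rise was 2.63-fold (log2 1.40 ± 0.10 SE, edgeR adjusted p = 1.66e-07). Dhx8 (PRP22), which releases the spliced mRNA, rose by log2 1.09, Ddx20 (Gemin3 of the SMN complex, which assembles small nuclear ribonucleoproteins) by 1.08, and Dhx16 (PRP2), which activates the spliceosome, by 1.06. Ddx39b (UAP56), which acts in spliceosome assembly and mRNA export, rose by 0.97, Dhx35, a component of the catalytic spliceosome, by 0.74, and Ddx42, which binds the SF3b complex, by 0.63.

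The members of the spliceosome list whose gene-level counts fell were Ddx23 and Ddx17. For Ddx23, transcripts annotated as protein coding held a mean of 12.6% of these counts in Ag and 38.3% in Ag+Costim. Ddx23 (PRP28), which releases the U1 small nuclear RNA from the 5′ splice site, lay at 10.5, 8.86, 9.58, 19.7 and 7.58 CPM in Ag. It lay at 6.66, 5.28, 6.82, 7.31 and 7.32 CPM in Ag+Costim and at 19.4 and 22.8 CPM in Naive. All 5 Ag+Costim libraries were below all Ag libraries, and Ag 4 reached the level of Naive. The fall was 1.68-fold (log2 -0.75 ± 0.23 SE, edgeR adjusted p = 0.0136), and without Ag 4 it was log2 -0.45 (edgeR adjusted p = 0.0141).

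Ddx17, the close relative of Ddx5, lay at 45.5, 43.7, 42.4, 89.9 and 40.5 CPM in Ag. It lay at 36.2, 31.7, 29.3, 36.6 and 31.1 CPM in Ag+Costim and at 77 and 71.8 CPM in Naive. The Ag and Ag+Costim libraries did not overlap, and Ag 4 alone lay above the Naive libraries. The fall was 1.59-fold (log2 -0.67 ± 0.20 SE, edgeR adjusted p = 0.0112), and without Ag 4 it was log2 -0.39 (edgeR adjusted p = 0.0021). Not called in the list were Ddx46 (PRP5), which acts in the recognition of the branch point, at log2 0.24, Ddx41 at -0.23 and Ddx5 at 0.03. Without Ag 4 the values of Ddx46 (0.35, edgeR adjusted p = 0.00146) and Ddx41 (-0.30, edgeR adjusted p = 0.00572) passed the test. Ddx5 changed sign with a correction for transcript length, to log2 -0.24 (edgeR adjusted p = 0.00915).

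**Figure D2:**
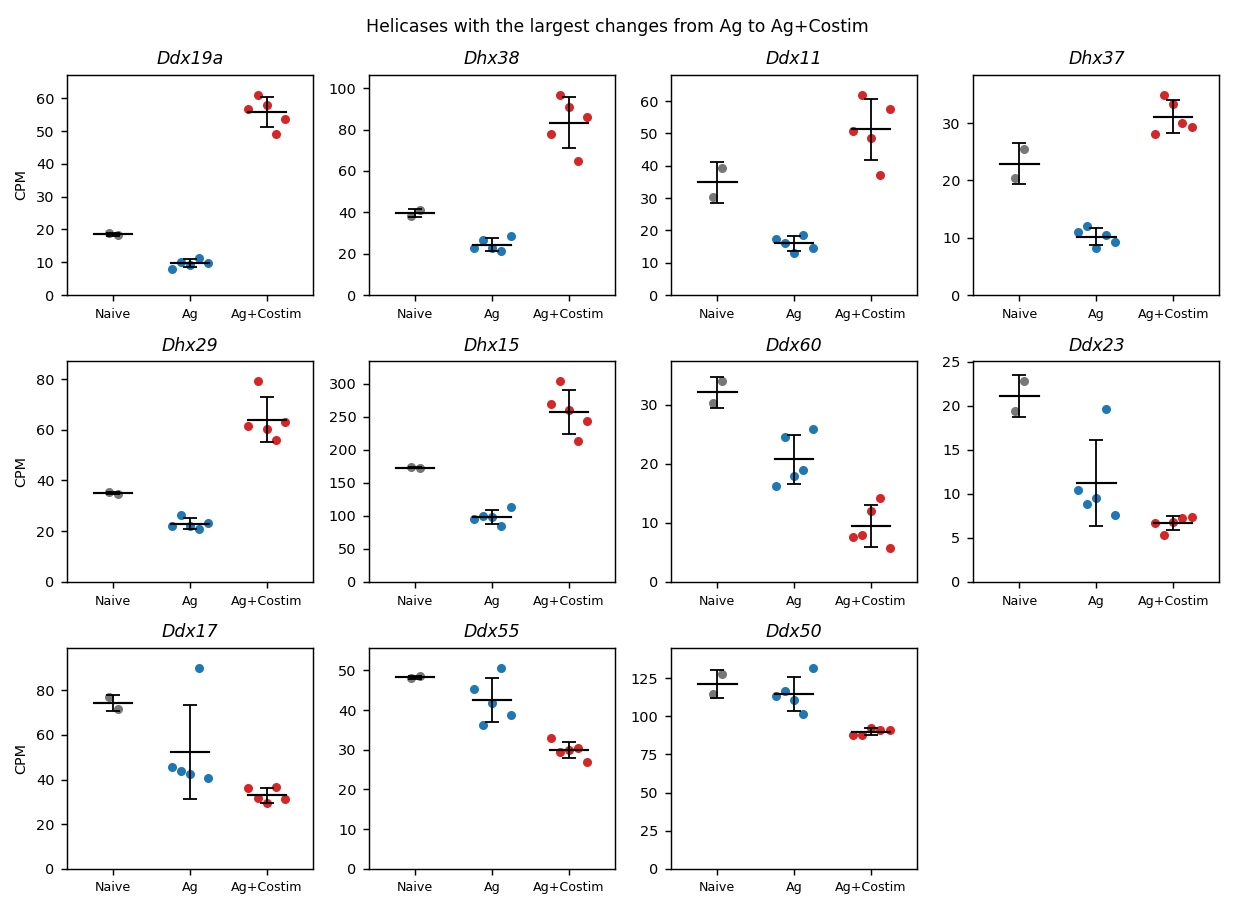
CPM in each library for the 6 helicases with the largest rises and the 5 called lower from Ag to Ag+Costim, with lines and bars for mean ± SD by group. All 11 have Ag+Costim libraries that do not overlap with the Ag libraries, and Ag 4 is the high Ag point for Ddx23 (19.7 CPM) and Ddx17 (89.9 CPM).

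Ribosome biogenesis was the role of 16 members, of which costimulation raised 11 and lowered 2, with a median log2 fold change of 0.63. The shares over all genes tested were 26.6% higher and 26.5% lower, and the median of all 52 helicases was 0.64. Dhx37, which acts on the small subunit precursor, lay at 10.9, 12, 8.18, 10.6 and 9.28 CPM in Ag. It lay at 28.1, 35.0, 33.4, 29.9 and 29.3 CPM in Ag+Costim and at 20.4 and 25.5 CPM in Naive. The Ag libraries were below and the Ag+Costim libraries above both Naive libraries. The rise was 3.05-fold (log2 1.61 ± 0.12 SE, edgeR adjusted p = 2.36e-07). From Naive to Ag, Dhx37 fell 2.25-fold (log2 -1.17 ± 0.15 SE, edgeR adjusted p = 4e-05).

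Dhx33, a nucleolar helicase linked to ribosomal RNA transcription, showed the largest fall of any called helicase from Naive to Ag. It lay at 24.7 and 30.4 CPM in Naive and at 8.86, 9.13, 9.88, 6.29 and 7.60 CPM in Ag. In Ag+Costim it lay at 19.9, 31.1, 18.7, 18.6 and 15.4 CPM, where it overlapped with Naive and not with Ag. The fall from Naive was 3.29-fold (log2 -1.72 ± 0.23 SE, edgeR adjusted p = 4.47e-05) and the rise from Ag to Ag+Costim 2.48-fold (log2 1.31 ± 0.19 SE, edgeR adjusted p = 5.02e-05). Further rises from Ag to Ag+Costim were log2 1.23 for Ddx54, 1.00 for Ddx27, 0.95 for Ddx21, 0.84 for Ddx10, 0.74 for Ddx51, 0.68 for Ddx31, 0.58 for Ddx56, 0.35 for Ddx18 and 0.31 for Ddx49. The Ag and Ag+Costim libraries overlapped for Ddx18 and Ddx49, whose calls were lost with upper-quartile scaling (edgeR adjusted p = 0.189 and 0.31). These 9 members are nucleolar factors of ribosomal RNA maturation, and Ddx21 also couples it to transcription by RNA polymerases.

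Ddx55 and Ddx50 fell. Ddx55, a factor of the large subunit, lay at 45.4, 36.4, 41.8, 50.5 and 38.8 CPM in Ag and at 32.9, 29.4, 29.9, 30.5 and 27.0 CPM in Ag+Costim. Naive libraries were at 48.0 and 48.6 CPM, within the range of Ag, and the fall was log2 -0.51 ± 0.10 SE (edgeR adjusted p = 0.000672). Ddx50, the paralog of Ddx21, lay at 113, 116, 111, 101 and 132 CPM in Ag and at 87.8, 87.7, 92.1, 91.3 and 91.2 CPM in Ag+Costim. In Naive it lay at 115 and 128 CPM, and its fall was the smallest of the 5, at log2 -0.35 ± 0.08 SE (edgeR adjusted p = 0.0018). Coding sequences of Ddx21 and Ddx50 were 73.3% identical and shared no stretch of 100 bases, the read length. Ddx24 (log2 0.21), Ddx52 (-0.06) and Ddx47 (-0.07) were not called. Without Ag 4, the lowest Ag library for Ddx47, the value of Ddx47 was -0.18 (edgeR adjusted p = 0.0304). Without Ag 5 the value of Ddx24 was 0.27 (edgeR adjusted p = 0.0196).

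Export, translation and decay of mRNA was the role of 12 members, of which 9 were higher and 0 lower after costimulation, with a median log2 fold change of 0.69. Of all genes tested, 26.6% were higher and 26.5% lower, and the 52 helicases had a median of 0.64. By DESeq2 and by limma on FPKM the count of all 52 helicases that were lower was 6, with Ddx41 of the spliceosome list added to the 5. The largest rise of any helicase was that of Ddx19a, which remodels mRNA-protein particles at the nuclear pore. Ddx19a lay at 8.03, 10.1, 9.27, 11.4 and 9.67 CPM in Ag. It lay at 56.8, 61.2, 58.1, 49.2 and 53.6 CPM in Ag+Costim and at 18.9 and 18.2 CPM in Naive. No groups overlapped. Its rise was 5.76-fold (log2 2.53 ± 0.11 SE, edgeR adjusted p = 3.62e-09).

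Its paralog Ddx19b, the next gene on chromosome 8 (Ddx19a at chr8:110974996-110997800 and Ddx19b at chr8:111003188-111031751, mm10), lay between 23.2 and 26.3 CPM in Ag and between 35.8 and 43.3 CPM in Ag+Costim. Ddx19b rose by log2 0.65 ± 0.08 SE (edgeR adjusted p = 1.6e-05). The coding sequences of the pair were 93.2% identical, and 569 of the 2448 stretches of 100 bases in Ddx19a-201 (23.2%) were also in Ddx19b transcripts. Reads from those stretches could be counted for either gene. The summed level of the pair, which does not depend on that split, was 34.6 ± 1.60 CPM in Ag, 94.8 ± 6.20 in Ag+Costim (SD, n = 5 each) and 38.6 ± 0.07 in Naive (SD, n = 2).

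Dhx29, which helps the small ribosomal subunit scan structured leaders, lay at 21.9, 26.4, 22.1, 21 and 23.2 CPM in Ag. It lay at 61.7, 79.1, 60.2, 55.9 and 63.1 CPM in Ag+Costim and at 35.4 and 34.8 CPM in Naive. The order was Ag, Naive, Ag+Costim with no overlap. The rise was 2.79-fold (log2 1.48 ± 0.10 SE, edgeR adjusted p = 1.16e-07). Further rises were log2 1.18 for Ddx3x, 0.83 for Ddx1, 0.81 for Ddx39, 0.73 for Dhx9, 0.66 for Ddx6 and 0.43 for Dhx57, whose groups overlapped and whose call was lost with upper-quartile scaling (edgeR adjusted p = 0.143) and with the transcript length correction (edgeR adjusted p = 0.316). Not called were Dhx36, which unwinds G-quadruplexes, at log2 -0.20 (-0.53 and called with the correction for transcript length, edgeR adjusted p = 0.00772), Ddx25 at -0.15 and Ddx3y at -0.08.

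Among these, Ddx39, Ddx1 and Ddx6 also belonged to the largest changes from Naive to Ag. Ddx39 (URH49), an mRNA export helicase, lay at 238 and 232 CPM in Naive, at 431, 394, 377, 368 and 350 CPM in Ag, and at 689, 673, 732, 546 and 720 CPM in Ag+Costim. The 3 groups did not overlap and rose in that order, by log2 0.71 ± 0.13 SE from Naive to Ag (edgeR adjusted p = 0.000432) and 0.81 ± 0.09 SE from Ag to Ag+Costim (edgeR adjusted p = 6.29e-06). Its paralog Ddx39b, with 81.7% identical coding bases and no shared stretch of 100 bases, was lower in Ag than in Naive by log2 -0.48 ± 0.09 SE (edgeR adjusted p = 0.000882). Ddx39 overlaps Adgre5 on the other strand, and whether reads were counted by strand is not given in the sources used here.

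Ddx1, which is counted in the mRNA list and is also known from transfer RNA ligation, lay at 109 and 100 CPM in Naive and at 159, 167, 146, 120 and 154 CPM in Ag. In Ag+Costim it lay at 277, 296, 282, 217 and 255 CPM. The 3 groups rose in that order without overlap, by log2 0.51 ± 0.14 SE at the first step (edgeR adjusted p = 0.00981). That call was lost without Naive 2 (0.45, edgeR adjusted p = 0.111) and with limma on log2(FPKM + 1) (0.33, limma adjusted p = 0.0598) and on log2(FPKM + 0.1) (0.34, limma adjusted p = 0.0582).

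Ddx6, a translational repressor of processing bodies that acts with the decapping machinery, went the other way at the first step. It lay at 109 and 111 CPM in Naive and at 41.6, 46.0, 41.2, 55.4 and 50.6 CPM in Ag. In Ag+Costim it lay at 69.2, 70.9, 65.1, 90.8 and 74.2 CPM, between the other groups and without overlap. Its fall was 2.34-fold (log2 -1.23 ± 0.14 SE, edgeR adjusted p = 9.32e-06). In Ag+Costim it remained lower than in Naive (log2 -0.57 ± 0.14 SE, edgeR adjusted p = 0.00355).

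**Figure D3:**
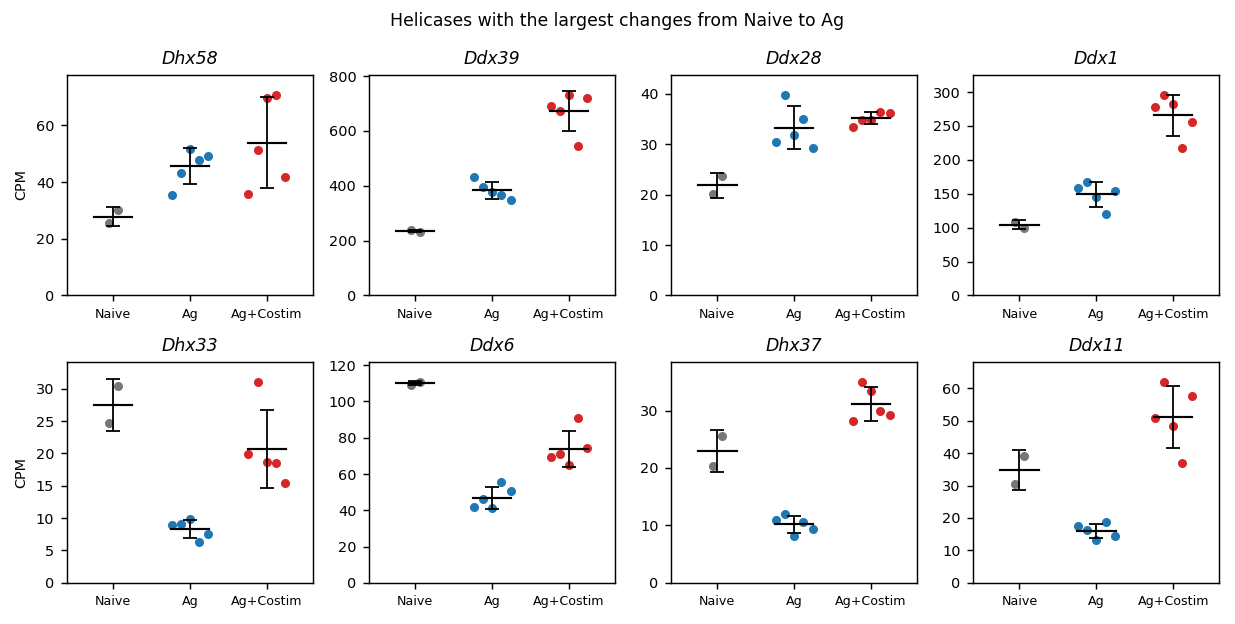
CPM in each library for the 4 called helicases with the largest rises and the 4 called helicases with the largest falls from Naive to Ag. Lines and bars give mean ± SD by group. Dhx33, Ddx6, Dhx37 and Ddx11 have all Ag libraries below both Naive libraries, and Ddx6 in Ag+Costim lies between the other groups at 65.1 to 90.8 CPM.

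The mitochondrial members were Dhx30, which binds mitochondrial RNA and acts in ribosome assembly of the organelle, and Ddx28, a factor of the large mitochondrial subunit. Dhx30 fell from Naive to Ag by log2 -1.12 and rose from Ag to Ag+Costim by 0.95. Ddx28 lay at 20.1 and 23.6 CPM in Naive, at 30.4, 39.8, 31.7, 35.0 and 29.3 CPM in Ag and at 33.4, 34.7, 34.8, 36.4 and 36.2 CPM in Ag+Costim. It rose from Naive to Ag by log2 0.60 ± 0.13 SE (edgeR adjusted p = 0.00228), and the difference between Ag+Costim and Ag was 0.08 ± 0.10 SE, which the correction for transcript length raised to 0.28 (edgeR adjusted p = 0.0254). That rise missed the threshold without Naive 1 (0.49, edgeR adjusted p = 0.0506). Ddx28 overlaps Dus2 on the other strand.

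Antiviral sensing had 3 members with 3 different patterns. Ddx60, an interferon-induced cofactor of RNA sensors, lay at 30.2 and 34.0 CPM in Naive, at 16.3, 24.5, 18, 19 and 25.9 CPM in Ag and at 7.61, 7.91, 12, 14.3 and 5.66 CPM in Ag+Costim. Every group lay below the one before it without overlap, and the falls from Ag to Ag+Costim (log2 -1.13 ± 0.23 SE, edgeR adjusted p = 0.000939) and from Naive to Ag+Costim (-1.76 ± 0.28 SE, edgeR adjusted p = 0.000159) passed the test. That from Naive to Ag did not (-0.63 ± 0.29 SE, edgeR adjusted p = 0.09), but it was called when only these 2 groups were fitted and without Ag+Costim 4. It was the largest fall of any helicase with costimulation.

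Dhx58 (LGP2), a regulator of the RIG-I-like receptors, lay at 25.5 and 30.1 CPM in Naive, at 35.5, 43.4, 51.5, 47.9 and 49.3 CPM in Ag and at 35.8, 51.2, 69.8, 70.8 and 41.8 CPM in Ag+Costim. It was higher in Ag than in Naive by log2 0.71 ± 0.25 SE (edgeR adjusted p = 0.0319), a call that was lost without either Naive library (edgeR adjusted p = 0.211 and 0.0939). It was also lost with a replicate block (0.46, edgeR adjusted p = 0.0635), without Ag 3 (edgeR adjusted p = 0.0592) or Ag 5 (edgeR adjusted p = 0.0527), and with limma on log2(FPKM + 1) and log2(FPKM + 0.1) (limma adjusted p = 0.118 and 0.111). The Ag and Ag+Costim libraries overlapped, with a difference of log2 0.24. Ddx58 (RIG-I), a sensor of viral RNA ends, was lower in Ag than in Naive by log2 -0.74 ± 0.21 SE (edgeR adjusted p = 0.00985). That call was lost with the correction for transcript length. From Ag to Ag+Costim the difference of Ddx58 was log2 0.24, which was not called. The list of 16 interferon-stimulated genes had 4 called higher and 3 called lower with costimulation, against 26.6% and 26.5% of all genes. Its median was 0.29. Ifih1 (MDA5), a related sensor, rose by log2 1.79, and Ifit1, which binds foreign RNA, fell by 0.83 on the log2 scale.

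Ddx11 was the member assigned to DNA and chromosomes, since it acts in sister chromatid cohesion and replication. It lay at 30.4 and 39.2 CPM in Naive, at 17.4, 16.1, 13.1, 18.7 and 14.4 CPM in Ag and at 50.9, 62.0, 48.5, 37.0 and 57.7 CPM in Ag+Costim. The Ag libraries lay below all others, and Ag+Costim 4 fell within the range of Naive. It fell 2.19-fold from Naive to Ag (log2 -1.13 ± 0.18 SE, edgeR adjusted p = 0.000235) and rose 3.22-fold from Ag to Ag+Costim (log2 1.69 ± 0.15 SE, edgeR adjusted p = 7.39e-07).

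The remaining members were Dhx34, which is known from nonsense-mediated decay but was not in the list for mRNA export, translation and decay (log2 0.68 from Ag to Ag+Costim, called), Dhx32 (0.35, called), Ddx59 (0.34, called), Dhx40 (0.08, not called) and Ddx43 (-0.28, not called). Groups overlapped for Dhx32 and Ddx59. Ddx59 lost its call with upper-quartile scaling (edgeR adjusted p = 0.256), and Dhx32 lost its call without Ag 1 (edgeR adjusted p = 0.0656), Ag 2 (edgeR adjusted p = 0.0504) or Ag+Costim 5 (edgeR adjusted p = 0.0636), with upper-quartile scaling (edgeR adjusted p = 0.283) and with the transcript length correction (edgeR adjusted p = 0.142). The Dhx genes as a whole had 13 of 16 higher and 0 lower from Ag to Ag+Costim, with a median of 0.84, and the Ddx genes 20 of 36 higher and 5 lower, with a median of 0.35. That difference between prefixes was not tested. Over all genes tested, 26.6% were higher and 26.5% lower, with a median of -0.05.

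The X-linked Ddx3x and the Y-linked Ddx3y encode closely related translation helicases, with 84.6% identical coding bases and no shared stretch of 100 bases. Ddx3x lay at 52.5, 55.0, 56.3, 59.9 and 62.3 CPM in Ag, at 133, 150, 139, 109 and 120 CPM in Ag+Costim and at 103 and 92.6 CPM in Naive. The 3 groups did not overlap, and the rise from Ag to Ag+Costim was 2.27-fold (log2 1.18 ± 0.09 SE, edgeR adjusted p = 3.05e-07). From Naive to Ag, Ddx3x fell by log2 -0.78 ± 0.12 SE (edgeR adjusted p = 0.000142).

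Ddx3y split the libraries within every group. It lay at 32.5 and 34.1 CPM in Ag 1 and Ag 2 but at 0.303, 2.1 and 0.144 CPM in Ag 3 to 5. It lay at 30.2 and 35.1 CPM in Ag+Costim 1 and 2 but at 0.364, 0.163 and 0 CPM in Ag+Costim 3 to 5, where 3 counts, the upper limit for a count of 0, correspond to 0.0779 CPM in Ag+Costim 5. In Naive it lay at 102 and 1.2 CPM. The 5 libraries with Ddx3y also held the Y-linked Eif2s3y at 66.6 to 133 CPM and the X-inactivation RNA Xist at 0.823 to 15 CPM, while the other 7 held Eif2s3y at 0 to 1.31 CPM and Xist at 81.6 to 458 CPM. The libraries with the numbers 1 and 2 of both transferred groups thus carried Y-linked transcripts and those numbered 3 to 5 did not, so sex cannot be told apart from anything else that these numbers may mark. Over all libraries, the difference of Ddx3y between Ag+Costim and Ag was log2 -0.08 ± 1.83 SE. With a term for Y-linked transcripts in the model, chosen after seeing the data, 33 helicases were higher and 5 lower with costimulation, and all 38 calls of the main model were kept.

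**Figure D4:**
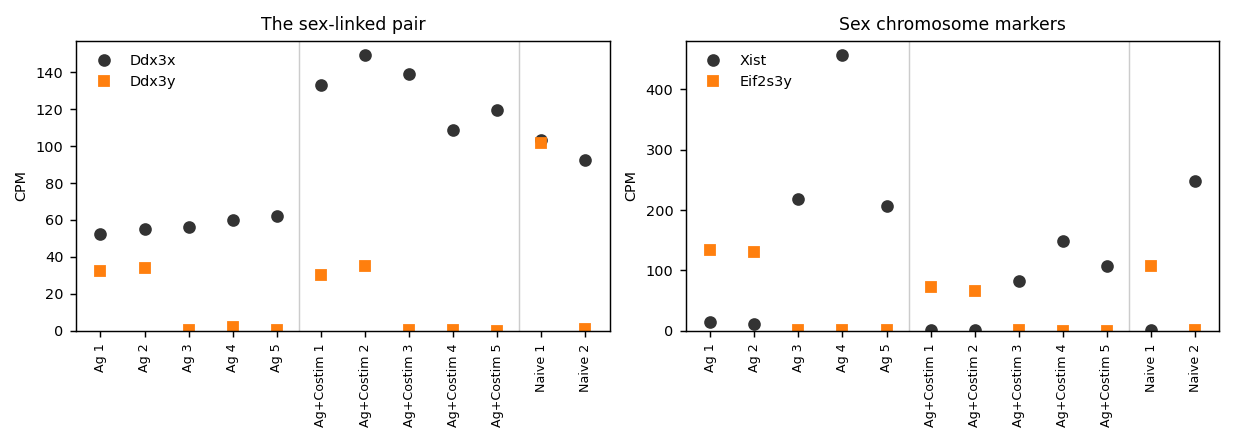
CPM in each library for Ddx3x and Ddx3y (left) and for Xist and Eif2s3y (right). Ddx3y and Eif2s3y are present in Ag 1 and 2, Ag+Costim 1 and 2 and Naive 1, where Xist is at 15 CPM or below, and Ddx3x is higher in all Ag+Costim libraries than in all Ag libraries.

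Transcript counts gave a second readout of the same genes, the share of a gene's counts on transcripts annotated as protein coding rather than as retained intron, nonsense-mediated decay or other types. It could be tested in 38 of the 52 helicases, those with at least 120 counts on either side. The share was higher in Ag+Costim than in Ag for 8 and lower for 0 of the 38 (limma on the log2 ratio, adjusted p below 0.05), against 15.9% higher and 2.47% lower among the 6689 genes tested. The median change of the log2 ratio was 0.70 in the helicases and 0.36 over all genes tested. From Naive to Ag it was higher for 6 and lower for 0 of 38, against 12.4% and 1.42% of all genes. The estimates rest on how StringTie splits single-end reads between overlapping transcripts.

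In Ddx39 the coding share was 23.6% and 21.4% in Naive, 38.2%, 35.2%, 38.4%, 34.7% and 37.7% in Ag, and 68.4%, 57.4%, 67.3%, 59.4% and 54.0% in Ag+Costim. The groups did not overlap, and the log2 ratio of coding to other counts rose by 1.45 ± 0.29 SE from Ag to Ag+Costim (limma adjusted p = 0.00541). Most of the rest was Ddx39-203, a transcript with a retained intron (chr8:83715268-83723274, mm10), which held 74.2% of the gene's counts in Naive, 60.8% in Ag and 36.0% in Ag+Costim. The coding transcript Ddx39-201 held 13.8%, 30% and 57.1% in the same order.

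For Ddx23, whose summed counts fell with costimulation, the coding share was 14.5%, 8.08%, 20.4%, 6.64% and 13.3% in Ag and 45.2%, 20.2%, 49.1%, 37.6% and 39.4% in Ag+Costim. Naive libraries were at 21.4% and 21.3%, and the groups overlapped at Ag 3 and Ag+Costim 2, with the other libraries apart. The log2 ratio rose by 2.15 ± 0.50 SE (limma adjusted p = 0.0125). Its largest transcript in Ag, the short Ddx23-207 with a retained intron at the 5′ end of the gene (chr15:98662006-98662894, mm10), went from 49.5% of the counts in Ag to 35.6% in Ag+Costim, while the coding Ddx23-201 went from 11% to 39.1%. The gene-level fall of Ddx23 is thus a fall of a sum. Coding transcripts held 12.6% ± 5.51 of it in Ag and 38.3% ± 11.1 in Ag+Costim (SD, n = 5 each). Since that share rose, the fall of the sum does not show a fall of the coding transcripts, whose own level was not tested.

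Dhx9, an RNA helicase A known from transcription, splicing and export, had coding shares of 56.6%, 64.4%, 59.8%, 66.6% and 56.7% in Ag and 80.9%, 86.6%, 87.7%, 83.1% and 83.0% in Ag+Costim. Naive lay at 63.0% and 53.5%, and the log2 ratio rose by 1.80 ± 0.25 SE from Ag (limma adjusted p = 0.000789). The transcript that took most of the counts also differed, a point noticed after the values were seen and not tested. Dhx9-201 held 46.2% to 59.8% of the gene's counts in Ag and 9.56% to 15.5% in Ag+Costim. Dhx9-202 was listed at 0 in all Ag and Naive libraries and held 37.8% to 59.1% in Ag+Costim. A listed 0 can be a failed estimate. The pair encode 4152 and 4149 coding bases and differ by 3 bases at the start of an exon on chromosome 1 (chr1:153478979-153478981, mm10, minus strand). These bases are in capitals below, because this is the coding difference that separates the transcripts.
Dhx9-201: tcaaagcagaagCAGaaaataattctg
Dhx9-202: tcaaagcagaagaaaataattctg

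The coding share also rose in Dhx30, from 77.1% ± 7.04 in Ag to 93.4% ± 1.65 in Ag+Costim (SD, n = 5 each, limma adjusted p = 0.00102), and in Dhx29, from 88.4% ± 2.23 to 97.5% ± 0.79 (limma adjusted p = 0.000153). In Ddx19a it rose from 94.5% ± 3.29 to 99.3% ± 0.36 (limma adjusted p = 0.00644). Coding transcripts held nearly all counts of Dhx8 and Ddx56 in every group. Dhx8 went from 98.6% ± 0.68 to 99.5% ± 0.08 (limma adjusted p = 0.00875) and Ddx56 from 98.3% ± 0.16 to 98.9% ± 0.21 (limma adjusted p = 0.0451). The call of Ddx56 was lost in 9 of the 10 fits that left out 1 library. The most abundant helicase of Naive cells, Ddx5, gave a contrast in values. Its transcript Ddx5-208, annotated for nonsense-mediated decay, held 61.3% and 64.8% of its counts in Naive, 30.2% to 54.9% in Ag and 40.5% to 58.2% in Ag+Costim. The coding share of Ddx5 was not called from Naive to Ag (limma adjusted p = 0.0626) or from Ag to Ag+Costim (limma adjusted p = 0.39).

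**Figure D5:**
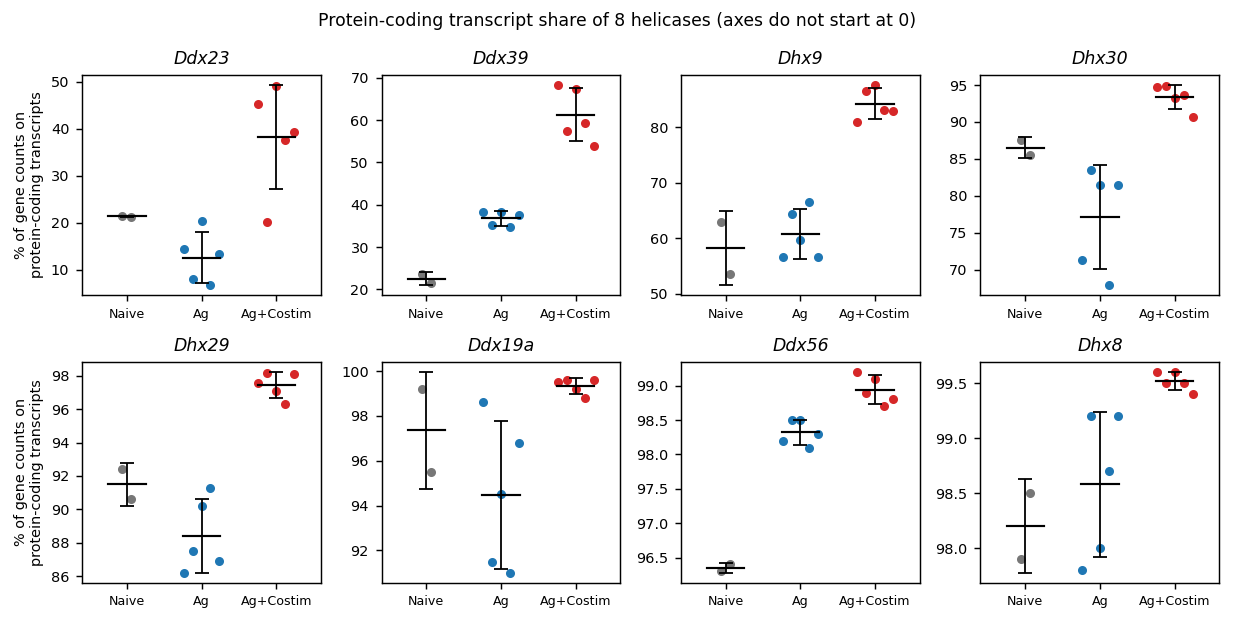
Percent of each gene's counts on protein-coding transcripts in each library for the 8 helicases whose share was called higher in Ag+Costim than in Ag, with lines and bars for mean ± SD by group and axes that do not start at 0. Ddx39 rises from 21.4% to 23.6% in Naive to 54.0% to 68.4% in Ag+Costim, while Dhx8 and Ddx56 move within a few percent of their full range.

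Splice nodes of the helicases were described from Psi, the fraction of reads that include a node, for which the authors deposited 1 value per group and which therefore has no replicate error here. Of 767 cassette exon and retained intron nodes in 51 helicases, 8 differed by 0.1 or more between Ag and Ag+Costim (1.04%), against 2.14% of 89831 nodes in all genes of the table. In helicases above the median CPM of the members, the largest was a retained intron in the 5′ untranslated part of Dhx30 (chr9:110115162-110115490, mm10, minus strand, 329 bases), with Psi 0.76 in Ag and 0.43 in Ag+Costim. It is exonic in Dhx30-219, which by StringTie held 27.2% of the gene's counts in Ag and 9.25% in Ag+Costim. Both values come from the same reads.

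The coding cassette exons past the same limit in these helicases were a 29-base exon of Dhx30-204 (chr9:110107941-110107969) with Psi 0.27 in Ag and 0.16 in Ag+Costim, a 37-base exon of Ddx42-201 (chr11:106230330-106230366) with 0.82 and 0.93, and a 118-base exon of Dhx36-201 (chr3:62480802-62480919) with 0.87 and 0.98. The lengths of these exons, 29, 37 and 118 bases, are not multiples of 3. The shorter pair is shown because each is small enough to read whole or nearly so, in coding orientation with exon bases in capitals, for Ddx42 the first 30 of 37.
Dhx30-204: GCTGAACGTTAACATTTCCAACATGGCAG
Ddx42-201: GGGTATTCGAGATGACATTGAAGAGGAAGA

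Genes that work with the helicases were described from lists of partners and of the pathways. Of 15 other RNA helicases tested, 13 rose and 1 fell from Ag to Ag+Costim, with a median log2 fold change of 1.01. Over all genes tested, 26.6% rose and 26.5% fell, with a median of -0.05. Snrnp200 (BRR2), which unwinds the U4 and U6 small nuclear RNAs, rose by log2 2.40, Upf1 of nonsense-mediated decay by 2.29 and the translation factor Eif4a1 by 1.30. The exception that fell was Eif4a2 (-0.27), and Dqx1 was not called. Among 20 genes of ribosome assembly 19 were higher and 0 lower, with a median of 0.97 and with Nop58 (log2 1.98), a core protein of small nucleolar particles, and Polr1b (1.87), a subunit of RNA polymerase I, at the top, and Wdr12 (0.19) not called.

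Of 22 genes listed as partners of the helicases, 16 were higher and 1 lower, against 26.6% and 26.5% of all genes. The median of the list was 0.43. The ubiquitin ligase Prpf19 of the spliceosome rose by log2 3.65, and Patl1, a decapping partner of Ddx6, by 2.04. Gle1, which activates Ddx19 at the nuclear pore, rose by 0.70. Alyref, the export adaptor recruited by Ddx39b, was the partner that fell (log2 -0.67, edgeR adjusted p = 0.0277), while Slu7 (-0.28), Cwc25 (-0.15), Thoc1 (0.19), Gpkow (0.21) and Gemin2 (0.23) were not called.

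Markers of cell types and states differed between the groups in the same direction as some of these values. All 7 proliferation markers were higher in Ag+Costim than in Ag and in Ag than in Naive, and their summed level was 198 and 209 CPM in Naive, 561 to 988 CPM in Ag and 2382 to 3242 CPM in Ag+Costim. Mki67, which marks cycling cells, rose by log2 4.36 from Naive to Ag and by 1.82 from Ag to Ag+Costim. The part of proliferation in the helicase values was not tested. The 8 markers of CD8+ T cells were detected in all libraries, with Cd8a at 504 to 1302 CPM, and 7 of the 8 were lower in Ag+Costim than in Ag. Cd4 and Foxp3 summed to at most 2.82 CPM.

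The 6 erythroid genes, led by Hba-a1, summed to 987, 2641, 626, 6379 and 1245 CPM in Ag 1 to 5, to between 14.5 and 223 CPM in the Ag+Costim libraries and to 2069 and 150 CPM in Naive. All 6 were lower in Ag+Costim than in Ag, and Ag 4 had the highest sum. B cell genes summed to 1114 to 1840 CPM in the Ag libraries. Their sum was 579 to 1186 CPM in the Ag+Costim libraries and 1048 and 1059 CPM in Naive, of which Ighm made up 522 to 1732 CPM. Of the 6 B cell genes, 5 were higher and 0 lower in Ag than in Naive, among them Cd79b (log2 1.39) and Cd79a (4.86) but not Ighm (0.49, not called). With costimulation 0 were higher and 4 lower, among them Cd79b (log2 -1.92) and Ighm (-0.97). Pax5 was at 0 in both Naive libraries. The 7 myeloid genes, led by Lyz2, summed to 30.7 and 57.3 CPM in Naive, 70.7 to 184 CPM in the Ag libraries and 91.6 to 167 CPM in the Ag+Costim libraries. Of these 7, 4 were higher and 0 lower in Ag than in Naive (median log2 0.99), and 3 were higher and 0 lower with costimulation, although the median of the 7 was then -0.44. The part of these cells in the helicase values was not tested. In bulk RNA, fewer cells of a type and less RNA per cell cannot be told apart.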

How the data were processed

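RNA of sorted OT-I cells was made into 12 libraries by template switching and read as single reads of 100 bases. Per the labels and methods, the authors aligned the reads with HISAT2 2.1.0 to mm10 and quantified them with StringTie 2.1.0, and they compared expression with DESeq2 1.30.1. The deposited count values, per gene and per transcript, are StringTie read counts derived from coverage, and the deposited FPKM values are scaled by the authors for length and library size. Psi, a fraction from 0 to 1, was computed by the authors with Whippet per group, and the Psi differences and probabilities in that table were not used. The deposited lane sheet gives a percent of reads aligned (72.3% to 76.5%), whose definition is not stated.

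Unannotated loci (at most 0.121% of a library's counts) were left out. Differences in counts were tested in R 4.3.3 by edgeR 4.0.16 (TMM, filterByExpr, 18817 genes, robust two-sided quasi-likelihood test with 1 term per group, all 12 libraries, Benjamini-Hochberg adjustment over all genes, threshold 0.05). All 52 helicases passed the filter on low counts. The coding share was compared with limma 3.58.1 on log2((coding + 1)/(other + 1)). The programs were tested on simulated data. Alternatives were RLE and upper-quartile scaling, no filter, DESeq2 1.42.0, fits of 2 groups only, limma on log2(FPKM + 1) and log2(FPKM + 0.1), a replicate block, a correction for transcript length, a term for Y-linked transcripts, and leaving out each library.

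Named with values in every library were the 6 called helicases with the largest rises and the 6 with the largest falls from Ag to Ag+Costim (5 fell), the 4 largest of each from Naive to Ag, and Ddx3x and Ddx3y. Splice nodes were named where the gene was above the median CPM of the members and Psi differed by at least 0.1, and coding shares where called. The members, the role lists, which were assigned by hand, and the other lists were chosen with earlier results of these data known. An annotated neighbor overlaps 22 of the 52 helicases, in 11 cases from the same strand. The libraries have no molecular identifiers, so limits from counts cover counting error only.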

Additional observations from a re-analysis of the deposited data

Results flagged for a closer look

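The 2 groups of 5 libraries were searched for single libraries far from the rest in each of the 52 helicases, 104 groups in all, of which 7 had such a library. About 1 in 20 groups is marked in this way by chance. Of the 7, 4 were in Ag 4, the library with the fewest counts and the highest sum of erythroid genes. Ddx17 in Ag 4 was at 89.9 CPM, compared with 40.5 to 45.5 CPM in the other Ag libraries. Ddx23 in Ag 4 was at 19.7 CPM, compared with 7.58 to 10.5 CPM. Ddx47 in Ag 4 was at 114 CPM, compared with 166 to 186 CPM, and Dhx40 in Ag 4 was at 25.4 CPM, compared with 36.3 to 40.5 CPM. Ddx18 in Ag 3 was at 89.4 CPM, above the 72.0 to 74.0 CPM of the other Ag libraries. Ddx20 in Ag+Costim 4 was at 53.6 CPM, below the 67.9 to 70.8 CPM of the rest. Ddx42 in Ag+Costim 2 was at 159 CPM, above the 103 to 117 CPM of the rest. The part of depth or of other cells in these values was not tested.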

How the results depend on the processing

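The sign of the helicase median was the same under every alternative run for Ag against Naive and for Ag+Costim against Ag, and for Ag+Costim against Naive it changed with limma on FPKM. Upper-quartile scaling gave medians of -0.465 for Ag against Naive, 0.44 for Ag+Costim against Ag with 9 helicases lower, and 0.03 for Ag+Costim against Naive with 11 lower. It moved the medians of all genes to 0.06, -0.24 and -0.18, and the helicase medians less those of all genes were -0.53, 0.69 and 0.21. These gaps are nearly fixed by construction, because scaling moves all genes nearly alike, and no stability was read from them. Between Ag+Costim and Ag, 4056 of all genes were then higher and 6338 lower, compared with 5006 and 4979 by TMM, and Ddx41 (log2 -0.43), Ddx47 (-0.26), Ddx52 (-0.25) and Dhx36 (-0.40) were added to the helicases called lower. The calls of Ddx18, Ddx49, Ddx59, Dhx32 and Dhx57 as higher were lost, and those of Dhx32 and Dhx57 also with the correction for transcript length. The correction for transcript length gave 10 higher and a median of -0.361 for Ag against Naive, 8 lower and a median of 0.443 for Ag+Costim against Ag, and a reversed log2 fold change of -0.238 for Ddx5. In the same fit Dhx36 (-0.525) and Ddx47 (-0.381) were called lower and Ddx28 (0.283) higher with costimulation. Limma on log2(FPKM + 1) gave 2 higher and a median of -0.639 for Ag against Naive, a median of 0.511 for Ag+Costim against Ag, and 10 higher, 13 lower and a median of -0.012 for Ag+Costim against Naive. With 0.1 in place of 1 these counts were equal and the medians were -0.698, 0.569 and -0.048. The cause of these shifts was not tested.

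Leaving out 1 library at a time gave 2 to 7 higher, 21 to 33 lower and medians of -0.562 to -0.47 for Ag against Naive. It gave 32 to 34 higher, 5 to 7 lower and medians of 0.57 to 0.673 for Ag+Costim against Ag, and 14 to 22 higher, 6 to 8 lower and medians of 0.147 to 0.222 for Ag+Costim against Naive. Coding shares were called higher for 7 to 9 helicases and lower for 0 to 1. Between Ag+Costim and Ag, the 52 helicases gave 1144 values under all alternatives, of which 10 lost a call, 17 gained one and 17 changed sign, 1 of them called (Ddx5, above) and 16 called neither before nor after. For Ag against Naive, the 10 helicases named with values gave 220, of which 11 lost a call and 2, both of Ddx3y and not called, changed sign. Of all 37 helicase calls for Ag against Naive, 13 were lost without Naive 1 and 13 without Naive 2, 8 with the transcript length correction and 8 with the replicate block.

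Same-numbered Ag and Ag+Costim libraries had correlations of 0.016 to 0.095 between their deviations from the group means, and those of different numbers -0.082 to 0.075. Ag 1, Ag 2 and Ag 3 each correlated best with their own number, and Ag 4 and Ag 5 each better with another. These low values do not settle whether the numbers mark pairs. Libraries numbered 1 and 2 carried Y-linked transcripts in both groups and those numbered 3 to 5 did not. The main model did not treat the libraries as pairs, and a replicate block was run as an alternative. With a replicate block, 4 helicases were higher and 26 lower for Ag against Naive, 33 and 5 for Ag+Costim against Ag with all 38 calls kept, and 19 and 8 for Ag+Costim against Naive. Coding shares were called higher for 8 helicases under the block, without Ddx56 (limma adjusted p = 0.0725, range over its alternatives 0.0328 to 0.102). Both comparisons with Naive rest on 2 libraries, Ag 4 had 24006053 counts, and Ddx25 had 261 counts over the 12 libraries, which limits what could be detected for it.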
